A study of Homo sapiens with 12 samples.

Results

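The genes described here are 34 named components of the unfolded protein response and of the integrated stress response: sensors in the membrane of the endoplasmic reticulum (ER), the transcription factors they act through, ER chaperones, disulfide enzymes, degradation factors and targets of the factor ATF4. They were taken as a fixed list of symbols that was chosen with earlier results of these data known. Their counts beside shares of all genes are therefore descriptive. All 34 were found among the 57773 genes of the count files and among the 21518 genes with enough reads to be tested. RNA was measured in WI-38, a line of human lung fibroblasts that has a limited lifespan and was kept at low population doublings, in 4 groups of 3 libraries. Every group had been transfected with a pool of small interfering RNAs at 25 nM: siCtrl, a non-targeting pool, siNTRK2, against the mRNA of the receptor TrkB, or siBDNF, against the mRNA of its ligand BDNF, with 1 pool per target. Proliferating cells (siCtrl_Prolif) then received vehicle, DMSO, for 8 days, and senescent cells (siCtrl_Sen, siNTRK2_Sen and siBDNF_Sen) received 50 µM etoposide, a topoisomerase poison that breaks DNA, and were collected on day 8. There was no proliferating group with siNTRK2 or siBDNF, so each silencing was compared with siCtrl in senescent cells only.

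The libraries held between 31567912 and 72328151 counts, so that 3 counts, the smallest signal taken as detected, corresponded to 0.0427 to 0.0916 CPM, a count divided by the scaled library size in units of 1e6 counts. NTRK2 had 0 counts in every siNTRK2 library, 7 to 15 in the siCtrl_Sen libraries and 1 to 11 in the siCtrl_Prolif libraries, all low counts. BDNF stood at 44.3 to 48.9 CPM with siBDNF against 157 to 169 CPM in siCtrl_Sen. It stood at 153 to 163 CPM in siCtrl_Prolif and at 203 to 206 CPM with siNTRK2. The 8 fibroblast markers examined were detected in every library, from 99.3 CPM or more for LUM to 8699 CPM or more for COL1A1. The markers of other cell types that were examined stayed at or below 2.35 CPM, except KRT19 (16.7 to 56.4 CPM) and CD68 (49.5 to 181 CPM), both of which were higher in the senescent groups. Of the low markers, PTPRC, CDH1, RBFOX3, SYP, KDR and VWF were also higher in siCtrl_Sen than in siCtrl_Prolif at an adjusted p under 0.05. EPCAM and GFAP did not differ at that threshold, and the listed endothelial marker PECAM1 was not found in the counts. Between siCtrl_Prolif and siCtrl_Sen, the cell cycle inhibitor CDKN1A rose from 913 to 966 CPM to 2773 to 2961 CPM, and the proliferation marker MKI67 fell from 15.8 to 16.9 CPM to 0.814 to 1.64 CPM. The share of counts from mitochondrial genes was 1.598 to 1.989% in siCtrl_Prolif, 3.325 to 3.649% in siCtrl_Sen, 2.502 to 2.848% in siNTRK2_Sen and 1.782 to 2.381% in siBDNF_Sen. In bulk RNA, fewer cells that express a gene and less of its RNA in each cell cannot be told apart.

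Proteins that are secreted or placed in membranes fold inside the ER, and unfolded protein there is sensed by membrane proteins. IRE1, encoded by ERN1, splices the XBP1 mRNA, ATF6 is cut in the Golgi to release a transcription factor, and PERK, encoded by EIF2AK3, phosphorylates the initiation factor eIF2-alpha. That phosphorylation lowers most translation while favouring that of ATF4, and it is also made by other kinases that respond to amino acid shortage, viral RNA or haem deficiency, hence the name integrated stress response. XBP1 and ATF6 act mainly on chaperone and degradation genes, while ATF4 acts on genes of amino acid synthesis and import and on DDIT3, which encodes CHOP. Counts per gene show the amount of mRNA and do not show splicing of XBP1, cleavage of ATF6 or CREB3L1, phosphorylation of eIF2-alpha or translation of ATF4.

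Short promoter stretches show how the targets of these factors are marked. The ER stress response element, through which ATF6 and XBP1 act together with the factor NF-Y, was searched as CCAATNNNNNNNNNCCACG on both strands of the 250 bases before each listed RefSeq start. It was present in 8 of the 33 members that had a promoter entry (XBP1, HSPA5, HSP90B1, CALR, CANX, CRELD2, PDIA6 and ERO1B), or 24.2%, and in 25 of 27305 genes in all, or 0.0916%. PDIA3 had no entry. The members were listed as genes of this response, so the gap between these shares is no independent test of the element. Its second part alone, CCACG, is a part of that element and was found in 22 of the 33 members (66.7%) and in 37.5% of all genes. The letters TGACGTGG, a form bound by XBP1 and ATF6, were found in HYOU1 alone among the members (3.03%) and in 0.78% of all genes. TGATGNAA, the type of site used by ATF4 or CHOP together with C/EBP factors, was found in HERPUD1, CHAC1 and ASNS (9.09% of members) and in 3.89% of all genes. A match is a run of letters and does not show binding. Stretches are shown for 3 abundant chaperones and 2 ATF4 targets that had a match. Stretches were also sought for PDIA4 and HYOU1, which lacked the full element, and for PSAT1, PHGDH and TRIB3, which lacked TGATGNAA. Each stretch is written 5′ to 3′ along the strand of its gene in build GRCh38.p14, with the matched letters in capitals. The HSPA5 stretch (chr9:125241381-125241419) covers bases 76 to 38 before the start, that of HSP90B1 (chr12:103930206-103930349) bases 204 to 61 with 2 matches, and that of CALR (chr19:12938374-12938412) bases 235 to 197. Those of ASNS (chr7:97872459-97872486) and CHAC1 (chr15:40953252-40953279) cover bases 78 to 51 and 219 to 192.
HSPA5: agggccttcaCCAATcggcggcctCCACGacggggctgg
HSP90B1: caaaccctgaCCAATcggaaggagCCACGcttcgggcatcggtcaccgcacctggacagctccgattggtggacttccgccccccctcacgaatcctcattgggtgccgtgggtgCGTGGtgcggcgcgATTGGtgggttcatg
CALR: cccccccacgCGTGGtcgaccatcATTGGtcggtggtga
ASNS: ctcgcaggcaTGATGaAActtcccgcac
CHAC1: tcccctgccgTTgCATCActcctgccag

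The members spanned a wide range of levels. Divided by the length of the canonical transcript, the siCtrl_Sen mean was highest for the calcium-binding lectin chaperone CALR at 778 CPM per kilobase, followed by the chaperones HSP90B1 (366) and HSPA5 (256). Sensors were low on the same scale: ATF6 stood at 10.4, EIF2AK3 at 5.02 and ERN1 at 1.76 CPM per kilobase, while CREB3L1, a membrane-bound factor related to ATF6 that is known for its part in collagen production, stood at 109. The lowest member was ERO1B, at 0.608 CPM per kilobase.

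**Figure D1:**
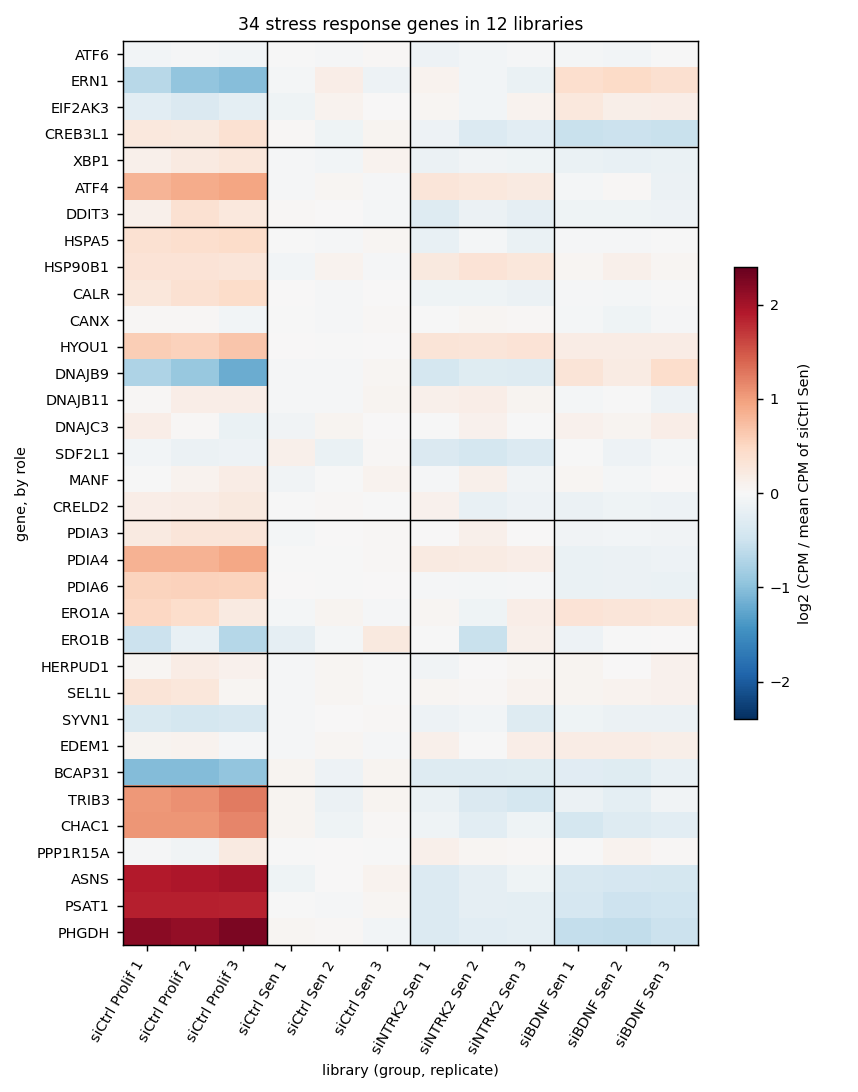
Level of the 34 genes in each of the 12 libraries, as the log2 ratio of CPM to the mean CPM of the siCtrl_Sen libraries. Rows are genes grouped by role (sensors, transcription factors, chaperones, disulfide enzymes, degradation and sorting, ATF4 and CHOP targets) and columns are libraries. The deepest red lies in the proliferating libraries for ASNS, PSAT1 and PHGDH, which stood between 98.9 and 135 CPM there and between 24.4 and 34.6 CPM in siCtrl_Sen.

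In senescent cells with siCtrl, ATF4 and 5 of the 6 listed ATF4 and CHOP targets were lower than in proliferating cells. PHGDH, PSAT1 and ASNS, enzymes of serine and asparagine synthesis, were 4.51-fold, 3.62-fold and 3.86-fold lower, TRIB3 and CHAC1 were 2.19-fold and 2.14-fold lower, and the mRNA of ATF4 itself was 1.85-fold lower. Most abundant chaperones and disulfide enzymes were lower by smaller amounts, from 1.20-fold for PDIA3 to 1.83-fold for PDIA4. The sensor ERN1 (1.81-fold), the co-chaperone DNAJB9 (1.89-fold) and the ER membrane protein BCAP31 (2.02-fold) were higher. At an adjusted p under 0.05, 25 of the 34 members differed, 6 higher and 19 lower, where 58.1% of all tested genes differed, 29.8% higher and 28.3% lower. With an absolute log2 fold change over 1 as well, 1 member was higher and 5 were lower, against 16.7% of all genes in either direction. The median log2 fold change of the members was -0.21, and that of all tested genes was 0.02. With an offset for gene length and GC content the split was 4 higher and 26 lower, and the median of all genes moved to -0.20. The shares of all genes above are from the fit without the offset, so this split has no share of its own beside it. All 25 called members kept their direction relative to the median of the fit with the offset. The falls of 9 called members were over 1.5 times larger with that offset, before the shift of the median is taken into account. Among them were CALR (-0.71), PDIA3 (-0.62), DDIT3 (-0.59), CREB3L1 (-0.58), CRELD2 (-0.52) and XBP1 (-0.35). Relative to the median of that fit these 6 stood at -0.51, -0.42, -0.39, -0.38, -0.32 and -0.15. Without the offset they were at -0.36, -0.26, -0.25, -0.28, -0.19 and -0.21, where the median was 0.02. Fibroblast markers also differed in this comparison: their sum was 31840 to 33770 CPM in proliferating and 23050 to 24840 CPM in siCtrl_Sen libraries, with PDGFRB 2.47-fold, COL3A1 2.19-fold, DCN 1.66-fold and COL1A1 1.56-fold lower and THY1 1.15-fold higher. The part of these differences and of the fall in cycling markers in the stress response values was not tested.

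Of the ATF4 targets, PHGDH (chr1:120191034-120286841, build hg19 as for all gene positions here), the enzyme that opens the serine pathway, stood at 126, 121 and 135 CPM in the proliferating libraries and at 29.1, 28.6 and 26.8 CPM in siCtrl_Sen. PSAT1 (chr9:80912041-80945009), the next enzyme of that pathway, stood at 122, 122 and 119.7 CPM in proliferating and at 33.2, 32.6 and 34.6 CPM in senescent libraries. ASNS (chr7:97480989-97501854), which makes asparagine, stood at 98.9, 102 and 104 CPM and at 24.4, 26.6 and 27.9 CPM. For each of the 3 genes every proliferating library was above every senescent library by a wide margin. The log2 fold changes were -2.17 ± 0.056 (SE) for PHGDH (adjusted p = 1.34e-20), -1.86 ± 0.051 for PSAT1 (adjusted p = 6.05e-20) and -1.95 ± 0.061 for ASNS (adjusted p = 7.39e-19). TRIB3 (chr20:343479-378203), a pseudokinase that restrains ATF4 and AKT, stood at 55.4, 57.2 and 63.5 CPM against 28.2, 24.3 and 27.9 CPM, a log2 fold change of -1.13 ± 0.073 (adjusted p = 1.3e-12). CHAC1 (chr15:41245160-41248710), which degrades glutathione, stood at 145, 144 and 157 CPM against 73.1, 64.8 and 70.6 CPM, a log2 fold change of -1.10 ± 0.057 (adjusted p = 1.69e-14). Neither gene had overlapping groups. PPP1R15A, the phosphatase subunit GADD34 that reverses eIF2-alpha phosphorylation, was the only one of these 6 targets that was not called, at 102, 98.6 and 121 CPM in proliferating and 104, 105 and 103 CPM in senescent libraries. Summed over the 6 genes, the level was 644 to 701 CPM in proliferating and 282 to 292 CPM in siCtrl_Sen libraries.

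All 3 transcription factors were lower in senescent cells, where 28.3% of all tested genes were lower. ATF4 (chr22:39915700-39918688) stood at 278, 294 and 306 CPM in proliferating and at 156, 164 and 156 CPM in siCtrl_Sen libraries, with no overlap and a log2 fold change of -0.88 ± 0.048 (adjusted p = 4.66e-14). DDIT3 (chr12:57910371-57915520), which encodes the death-promoting factor CHOP, stood at 21.6, 25.6 and 23.7 CPM against 20.31, 20.02 and 19.302 CPM. The groups were close but did not overlap, with a log2 fold change of -0.25 ± 0.070 (adjusted p = 0.00344). MARS1, on the opposite strand, covers 27.2% of the exon bases of DDIT3 and had a log2 fold change of -0.63 ± 0.045 (adjusted p = 7.98e-12), and since the use of strand in counting is not given in the sources used here, reads of both genes may be mixed. XBP1 (chr22:29190543-29196585) stood at 117, 125 and 129.7 CPM against 105, 103 and 114 CPM, where the lowest proliferating library lay just above the highest senescent one, with a log2 fold change of -0.21 ± 0.049 (adjusted p = 0.000832).

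The sensors did not move together. ERN1 (chr17:62116440-62208179) rose from 8.83, 7.25 and 6.90 CPM to 13.5, 15.5 and 12.8 CPM, every senescent library above every proliferating one, with a log2 fold change of 0.86 ± 0.096 (adjusted p = 2.86e-08). EIF2AK3 (chr2:88856259-88991036) stood at 19.1, 17.8 and 19.3 CPM in proliferating and at 21.3, 24.1 and 22.9 CPM in siCtrl_Sen libraries, which did not overlap, with a log2 fold change of 0.28 ± 0.068 (adjusted p = 0.000864). With the offset for length and GC content the value for EIF2AK3 was 0.02 (adjusted p = 0.82) while the median of all genes was -0.20, and that for ERN1 was 0.42 (adjusted p = 0.000192). CREB3L1 (chr11:46299213-46342959) fell from 346, 342 and 378 CPM to 299, 273 and 304 CPM, without overlap and with a log2 fold change of -0.28 ± 0.052 (adjusted p = 5.35e-05). ATF6 (chr1:161736088-161947364) stood at 73.6, 76.0 and 73.6 CPM and at 77.0, 75.8 and 79.2 CPM, overlapping groups with a log2 fold change of 0.05 ± 0.046 that was not called (adjusted p = 0.321).

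Among the 11 chaperones, co-chaperones and secreted folding factors, 5 were lower and 1 was higher in senescent cells. Of all tested genes 28.3% were lower and 29.8% higher, 58.1% in either direction. HSPA5 (chr9:127997132-128003661), the Hsp70 chaperone BiP that also holds the sensors inactive, stood at 1290.4, 1329.7 and 1356 CPM in proliferating and at 996, 983 and 1031 CPM in siCtrl_Sen libraries. The groups were far apart, and the log2 fold change was -0.40 ± 0.042 (adjusted p = 8.59e-09). HYOU1 (chr11:118914899-118927938), a large relative of HSPA5 that serves as its nucleotide exchange factor, stood at 218, 212 and 228 CPM against 145, 144 and 145 CPM, a log2 fold change of -0.60 ± 0.042 (adjusted p = 4.5e-12). HSP90B1 (chr12:104323885-104347709), the ER Hsp90, stood at 1271, 1286 and 1242 CPM against 975, 1083 and 997 CPM, again without overlap, a log2 fold change of -0.31 ± 0.044 (adjusted p = 1.38e-06). CALR (log2 fold change -0.36 ± 0.042, adjusted p = 6e-08) and the secreted folding factor CRELD2 (-0.19 ± 0.061, adjusted p = 0.00987) also fell. DNAJB9 (chr7:108210311-108215294), the co-chaperone ERdj4 that holds IRE1 inactive through HSPA5, was the exception. It stood at 21.1, 18.8 and 15.5 CPM in proliferating and at 34.6, 34.3 and 36.5 CPM in siCtrl_Sen libraries, a log2 fold change of 0.92 ± 0.081 (adjusted p = 4.19e-10), so that the lowest senescent library lay well above the highest proliferating one. The membrane lectin CANX (809 to 866 CPM over both groups), the co-chaperones DNAJB11 (79.0 to 90.5 CPM) and DNAJC3 (55.5 to 69.0 CPM), SDF2L1 (15.4 to 18.6 CPM) and the secreted factor MANF (61.2 to 73.2 CPM) were not called. The summed level of the 11 genes, in which CALR, HSPA5 and HSP90B1 hold the largest share, was 5730 to 5946 CPM in proliferating and 4728 to 4845 CPM in senescent libraries.

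All 5 disulfide enzymes were called, 4 lower and 1 higher, where 28.3% of all tested genes were lower and 29.8% higher. PDIA4 (chr7:148700154-148725754), a protein disulfide isomerase, stood at 387, 390.5 and 415 CPM in proliferating and at 216, 216 and 222 CPM in siCtrl_Sen libraries, clearly apart, with a log2 fold change of -0.87 ± 0.042 (adjusted p = 3.44e-15). The related isomerases PDIA6 (-0.54 ± 0.038, adjusted p = 8.26e-12) and PDIA3 (-0.26 ± 0.043, adjusted p = 8.59e-06) fell less. ATP6V1C2 lies on the opposite strand of PDIA6, covers 25.2% of its exon bases and had a log2 fold change of -0.70 ± 0.054 (adjusted p = 2.98e-11), so reads of these genes too may be mixed. ERO1A (chr14:53106633-53162618), the oxidase that recharges the isomerases, fell from 62.6, 59.9 and 51.7 CPM to 43.3, 46.9 and 43.6 CPM, without overlap (log2 fold change -0.38 ± 0.067, adjusted p = 2.49e-05). Its paralog ERO1B stood at 2.12, 2.68 and 1.89 CPM against 2.60, 2.93 and 3.58 CPM, groups that overlapped, with a log2 fold change of 0.43 ± 0.175 (adjusted p = 0.0398). That call was lost without siCtrl_Prolif replicate 1 or 3 or siCtrl_Sen replicate 2 or 3 (adjusted p = 0.0626 to 0.225).

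Of the 5 genes of ER-associated degradation and sorting, BCAP31 and SYVN1 were higher and SEL1L was lower in senescent cells. The shares of all tested genes were 29.8% higher and 28.3% lower. BCAP31 (chrX:152965947-152990020), a membrane protein that escorts other membrane proteins out of the ER, stood at 119.9, 119 and 127 CPM in proliferating and at 257, 226 and 257 CPM in siCtrl_Sen libraries. Every senescent library was far above every proliferating one, with a log2 fold change of 1.01 ± 0.051 (adjusted p = 7.28e-15). SYVN1, the ubiquitin ligase HRD1, had a log2 fold change of 0.39 ± 0.055 (adjusted p = 1.08e-06), while its partner SEL1L had -0.22 ± 0.054 (adjusted p = 0.00132). The SYVN1 value was 0.09 (adjusted p = 0.18) with the offset for length and GC content, 0.29 above the median of all genes in that fit. The membrane protein HERPUD1 (77.8 to 89.4 CPM over both groups) and the lectin EDEM1 (62.6 to 67.6 CPM) were not called.

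**Figure D2:**
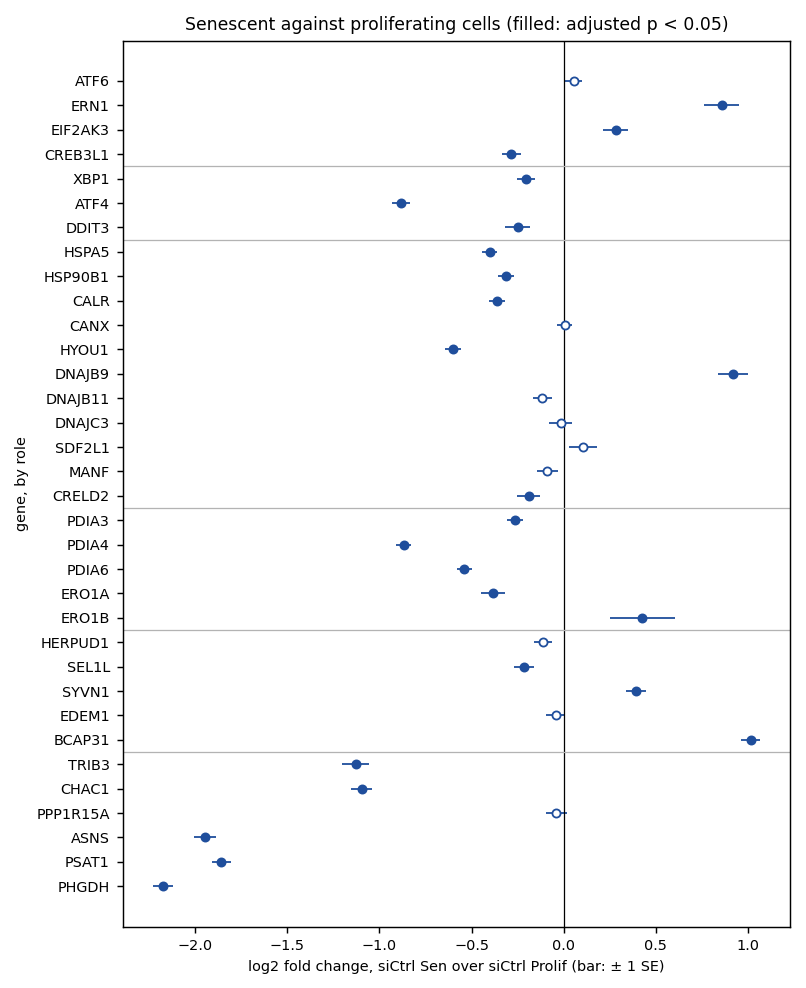
Log2 fold change of each of the 34 genes in siCtrl_Sen over siCtrl_Prolif, with bars of 1 standard error, filled where the adjusted p was under 0.05. Genes are grouped by role from top to bottom. PHGDH, ASNS and PSAT1 lie near -2, ATF4 and PDIA4 near -0.9, and BCAP31, DNAJB9 and ERN1 near 0.9 to 1.0.

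Silencing NTRK2 in senescent cells gave small differences in these genes, and none reached an absolute log2 fold change of 1. The chaperones HYOU1 (1.24-fold) and HSP90B1 (1.22-fold), ATF4 (1.19-fold) and PDIA4 (1.14-fold) were higher than with siCtrl. SDF2L1 (1.29-fold), DNAJB9 (1.27-fold), TRIB3 (1.24-fold), BCAP31 (1.23-fold), PHGDH (1.21-fold) and PSAT1 (1.19-fold) were lower. In all, 16 of the 34 members were called, 4 higher and 12 lower, where 21.1% of all tested genes were called, 11.1% higher and 10% lower. No member passed with an absolute log2 fold change over 1 added, against 0.957% of all genes. The median over the members was -0.05 and that over all genes was 0.00. Markers of cycling cells differed in the same comparison: MKI67 stood at 3.85 to 4.36 CPM with siNTRK2 and at 0.814 to 1.64 CPM with siCtrl, TOP2A at 23.8 to 24.8 and 10.3 to 12.7 CPM, and CDKN1A at 1955 to 2087 and 2773 to 2961 CPM. The summed level of 8 fibroblast markers was 27040 to 29960 CPM with siNTRK2 and 23050 to 24840 CPM with siCtrl. Within that list COL3A1 and LUM were 1.43-fold, COL1A1 1.3-fold, COL1A2 1.26-fold and PDGFRB 1.21-fold higher with siNTRK2. THY1 was 1.19-fold lower, and VIM and DCN were not called. The part of these differences in the stress response values was not tested.

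HYOU1 stood at 180.4, 178 and 181 CPM with siNTRK2 and at 145, 144 and 145 CPM with siCtrl, both groups tight and apart (log2 fold change 0.31 ± 0.041, adjusted p = 5.46e-06). HSP90B1 stood at 1202, 1283 and 1227 CPM against 975, 1083 and 997 CPM, every siNTRK2 library above every siCtrl one (0.28 ± 0.044, adjusted p = 5.29e-05). ATF4 stood at 194, 188 and 184 CPM against 156, 164 and 156 CPM, also without overlap (0.25 ± 0.048, adjusted p = 0.00047). These rises were not shared by all chaperones. SDF2L1 (chr22:21996591-21998588), a cofactor of ER Hsp40 proteins, stood at 13.5, 12.8 and 13.6 CPM with siNTRK2 and at 18.6, 15.4 and 17.5 CPM with siCtrl, a fall in every library (-0.37 ± 0.075, adjusted p = 0.000915). DNAJB9 fell from 34.6, 34.3 and 36.5 CPM to 26.1, 28.5 and 28.2 CPM (-0.35 ± 0.078, adjusted p = 0.00219). PDIA4 stood at 252, 251 and 244 CPM against 216, 216 and 222 CPM, where the siNTRK2 libraries were the higher ones (0.19 ± 0.042, adjusted p = 0.00139).

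ATF4 mRNA was higher with siNTRK2, while 4 of the 6 listed ATF4 and CHOP targets were lower and none was higher. Of all tested genes 10% were lower and 11.1% higher. TRIB3 stood at 24.0, 20.9 and 19.9 CPM with siNTRK2 and at 28.2, 24.3 and 27.9 CPM with siCtrl (-0.31 ± 0.075, adjusted p = 0.00434). PHGDH stood at 22.5, 23.6 and 23.9 CPM against 29.1, 28.6 and 26.8 CPM (-0.27 ± 0.057, adjusted p = 0.00111). For both, the siNTRK2 libraries lay below the siCtrl libraries without overlap, and the same held for PSAT1 at 26.8, 29.0 and 28.3 CPM against 33.2, 32.6 and 34.6 CPM (-0.26 ± 0.053, adjusted p = 0.000921). ASNS stood at 20.9, 22.7 and 24.4 CPM against 24.4, 26.6 and 27.9 CPM, groups that touched (-0.22 ± 0.063, adjusted p = 0.0152), and its call was lost without siCtrl_Sen replicate 3 or siNTRK2_Sen replicate 1 (adjusted p = 0.0936 to 0.126). CHAC1 (58.2 to 64.7 CPM with siNTRK2) and PPP1R15A (106 to 113 CPM) were not called.

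BCAP31 stood at 199, 198 and 203 CPM with siNTRK2 and at 257, 226 and 257 CPM with siCtrl, lower in every library (-0.30 ± 0.050, adjusted p = 8.16e-05). CREB3L1 stood at 267, 233 and 246 CPM against 299, 273 and 304 CPM, without overlap (-0.23 ± 0.053, adjusted p = 0.00253). The other sensors were not called: ATF6 stood at 70.6, 73.5 and 75.6 CPM, ERN1 at 14.8, 13.3 and 12.5 CPM and EIF2AK3 at 23.4, 21.9 and 24.2 CPM with siNTRK2. XBP1, at 97.1, 102 and 99.9 CPM against 105, 103 and 114 CPM, was not called either (adjusted p = 0.121). The remaining 12 members were not called, and lay between 2.10 CPM for ERO1B and 874 CPM for CANX in the siNTRK2 libraries. They were the chaperones and folding factors CANX, DNAJB11, DNAJC3, MANF and CRELD2, the disulfide enzymes PDIA3, PDIA6, ERO1A and ERO1B, and the degradation genes HERPUD1, SEL1L and EDEM1. Summed over roles, the 11 chaperones reached 4771 to 4986 CPM with siNTRK2 against 4728 to 4845 CPM with siCtrl, overlapping ranges, and the 5 disulfide enzymes 1388 to 1430 CPM against 1339 to 1372 CPM.

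Several of the smaller calls with siNTRK2 lay near the threshold and were lost in most of the fits that left out a library. DDIT3 stood at 16.002, 17.981 and 17.024 CPM against 20.31, 20.02 and 19.302 CPM, lower in every library (-0.23 ± 0.071, adjusted p = 0.0235), but its call was lost without siCtrl_Sen replicate 1 or 2 or siNTRK2_Sen replicate 1 or 3 (adjusted p = 0.0565 to 0.102), with log2 fold changes of -0.23 to -0.19 in those fits. With the offset for length and GC content DDIT3 was at -0.11 (adjusted p = 0.252). HSPA5 stood at 887, 967 and 899.8 CPM against 996, 983 and 1031 CPM, also lower in every library (-0.13 ± 0.042, adjusted p = 0.0293). It lost its call without replicate 1 or 3 of either group (adjusted p = 0.068 to 0.165), with log2 fold changes of -0.13 to -0.10. CALR (-0.12 ± 0.042, adjusted p = 0.0462) lost its call without siCtrl_Sen replicate 1 or 3 or any siNTRK2_Sen library (adjusted p = 0.0727 to 0.167), with log2 fold changes of -0.12 to -0.10, and was at -0.01 with the offset (adjusted p = 0.923). SYVN1 (-0.16 ± 0.054, adjusted p = 0.0417) lost it without any siCtrl_Sen library or siNTRK2_Sen replicate 3 (adjusted p = 0.0654 to 0.284), and its value without that siNTRK2 library was -0.09. With the offset SYVN1 was at -0.10 (adjusted p = 0.243). Of the calls that stayed, the offset moved HSP90B1 to 0.19, SDF2L1 to -0.24, TRIB3 to -0.20, CREB3L1 to -0.14 and PDIA4 to 0.30.

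Silencing BDNF in senescent cells, compared with the same siCtrl libraries, gave lower serine and asparagine synthesis genes and higher ERN1, DNAJB9 and ERO1A. PHGDH (1.47-fold), CREB3L1 (1.44-fold), PSAT1 (1.38-fold), ASNS (1.32-fold) and CHAC1 (1.25-fold) were lower, and ERN1 (1.34-fold), DNAJB9 (1.25-fold) and ERO1A (1.23-fold) were higher. In all, 14 of the 34 members were called, 5 higher and 9 lower, where 20.5% of all tested genes were called, 10.3% higher and 10.2% lower. No member passed with an absolute log2 fold change over 1 added, against 0.609% of all genes. The medians were -0.05 over the members and 0.00 over all genes. With library totals in place of scaling factors the split was 7 higher and 6 lower. With the offset for length and GC content it was 3 higher and 13 lower, and the median of all genes was -0.03. The shares of all genes above are from the fit with scaling factors and no offset, so they do not apply to these splits. The summed fibroblast markers, at 23850 to 24420 CPM, lay within the siCtrl_Sen range, but within that list DCN was 1.56-fold, THY1 1.45-fold and VIM 1.22-fold lower and COL1A2 1.16-fold higher with siBDNF. The cycling marker MKI67 stood at 1.95 to 2.79 CPM with siBDNF and 0.814 to 1.64 CPM with siCtrl, 1.88-fold higher (adjusted p = 0.000553), and TOP2A stood at 12.1 to 12.5 CPM against 10.3 to 12.7 CPM. TOP2A was not called (log2 fold change 0.12). Nor were the other senescence and cycling markers examined, CCNB1 (-0.01), LMNB1 (-0.18), CDKN1A (-0.04) and GDF15 (0.03). Of the leukocyte markers CD68 stood at 178 to 181 CPM with siBDNF and 106 to 113 CPM with siCtrl, with the markers PTPRC and CD3E at 1.07 CPM or less in every library. The part of these differences in the values of the 34 genes was not tested.

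PHGDH stood at 19.018, 18.791 and 19.719 CPM with siBDNF and at 29.1, 28.6 and 26.8 CPM with siCtrl, clearly lower in every library (-0.55 ± 0.058, adjusted p = 1.66e-07). PSAT1 stood at 25.4, 23.6 and 24.1 CPM against 33.2, 32.6 and 34.6 CPM (-0.46 ± 0.053, adjusted p = 8.01e-07). ASNS stood at 20.2, 19.9 and 19.5 CPM against 24.4, 26.6 and 27.9 CPM (-0.41 ± 0.064, adjusted p = 5.21e-05). In both, every siBDNF library was below every siCtrl library, as it was for CHAC1 at 52.1, 56.0 and 58.1 CPM against 73.1, 64.8 and 70.6 CPM (-0.32 ± 0.058, adjusted p = 0.000242). ATF4 itself was not called, at 154, 161 and 144 CPM against 156, 164 and 156 CPM (-0.05 ± 0.048, adjusted p = 0.553). TRIB3 (22.8 to 25.1 CPM) and PPP1R15A (104 to 109.6 CPM) were not called.

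CREB3L1 stood at 202, 204 and 202 CPM with siBDNF and at 299, 273 and 304 CPM with siCtrl, well apart, which was the largest change of a sensor in this comparison (-0.53 ± 0.053, adjusted p = 8.84e-08). ERN1 moved the other way, at 18.5, 19.1 and 18.2 CPM against 13.5, 15.5 and 12.8 CPM (0.42 ± 0.090, adjusted p = 0.00147). EIF2AK3 stood at 27.0, 25.0 and 25.3 CPM against 21.3, 24.1 and 22.9 CPM, higher in every library but not called (0.18 ± 0.067, adjusted p = 0.0632), and ATF6 stood at 75.1, 74.3 and 76.5 CPM against 77.0, 75.8 and 79.2 CPM, overlapping groups that were not called (adjusted p = 0.649). DNAJB9, which restrains IRE1, rose from 34.6, 34.3 and 36.5 CPM to 43.8, 40.5 and 47.0 CPM (0.32 ± 0.077, adjusted p = 0.0042). ERO1A rose from 43.3, 46.9 and 43.6 CPM to 56.0, 54.5 and 54.1 CPM, without overlap (0.30 ± 0.067, adjusted p = 0.00216), and its value with the offset for length and GC content was 0.13 (adjusted p = 0.0561). Of the abundant chaperones, HYOU1 rose to 163, 164 and 164 CPM (0.18 ± 0.042, adjusted p = 0.00271), whereas HSPA5, at 984, 985 and 991 CPM, HSP90B1, at 1050.4, 1115 and 1054 CPM, and CALR, at 1432 to 1479 CPM, were not called. Nor were CANX, DNAJB11, DNAJC3, SDF2L1, MANF, CRELD2, PDIA3, ERO1B, HERPUD1, SEL1L and SYVN1, which lay between 2.81 CPM for ERO1B and 829 CPM for CANX. The 5 disulfide enzymes summed to 1262 to 1277 CPM with siBDNF against 1339 to 1372 CPM with siCtrl, and the 6 ATF4 and CHOP targets to 245 to 252 CPM against 282 to 292 CPM.

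BCAP31 stood at 205, 202 and 217 CPM with siBDNF against 257, 226 and 257 CPM, lower in every library (-0.25 ± 0.050, adjusted p = 0.000812). PDIA6 had a log2 fold change of -0.15 ± 0.038 (adjusted p = 0.00567), and with library totals this was -0.09 and not called (adjusted p = 0.0635). DDIT3, at 18.6, 18.5 and 18.2 CPM, lay just below the siCtrl libraries and was not called (adjusted p = 0.321). The calls of 3 genes were lost when 1 library was left out. XBP1 stood at 96.1, 94.6 and 95.8 CPM against 105, 103 and 114 CPM (-0.17 ± 0.049, adjusted p = 0.015) and lost its call without siCtrl_Sen replicate 3 or siBDNF_Sen replicate 2 (adjusted p = 0.073 to 0.143). PDIA4 stood at 195, 196 and 199 CPM against 216, 216 and 222 CPM (-0.15 ± 0.042, adjusted p = 0.0129) and lost it without siCtrl_Sen replicate 3 or siBDNF_Sen replicate 1 or 2 (adjusted p = 0.0583 to 0.0673). The lectin EDEM1, which hands misfolded glycoproteins to degradation (0.17 ± 0.051, adjusted p = 0.0229), lost it without siCtrl_Sen replicate 1 or 3 or any siBDNF_Sen library (adjusted p = 0.0526 to 0.101). With library totals XBP1 was at -0.11 (adjusted p = 0.088) and PDIA4 at -0.09 (adjusted p = 0.0965), and with the offset EDEM1 was at 0.11 (adjusted p = 0.0854) and DNAJB9 at 0.21 (adjusted p = 0.0142).

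**Figure D3:**
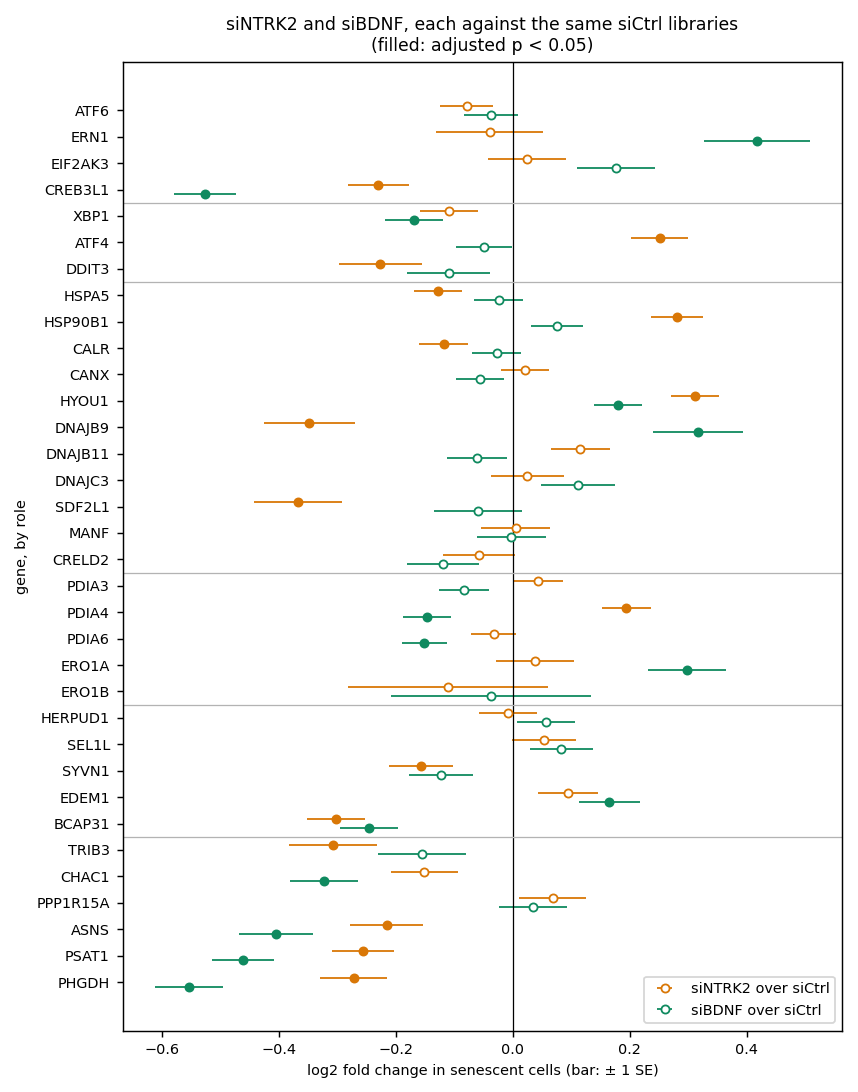
Log2 fold change of each gene with siNTRK2 (orange) and with siBDNF (green), each over the same 3 siCtrl_Sen libraries, with bars of 1 standard error, filled where the adjusted p was under 0.05. Genes are grouped by role from top to bottom. All values lie between -0.55 and 0.42, and DNAJB9 has filled points on opposite sides of 0, at -0.35 and 0.32.

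Because both silencings share the siCtrl libraries, whether they differ was tested on siNTRK2_Sen against siBDNF_Sen directly. DNAJB9, ERN1, SDF2L1 and ERO1A were lower with siNTRK2 than with siBDNF, by 1.58-fold, 1.37-fold, 1.24-fold and 1.20-fold. PDIA4 (1.27-fold), ATF4 (1.23-fold), CREB3L1 (1.23-fold), PHGDH (1.22-fold) and HSP90B1 (1.15-fold) were higher. In all 16 members were called, 12 higher and 4 lower with siNTRK2, where 16.7% of all tested genes were called, 8.84% higher and 7.86% lower, and none passed with an absolute log2 fold change over 1 added, against 1.16% of all genes. With library totals in place of scaling factors, 12 were called, 6 in each direction, and without siBDNF_Sen replicate 2 the count was 10, 6 higher and 4 lower. The shares of all genes above do not come from these alternative fits.

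DNAJB9 stood at 26.1, 28.5 and 28.2 CPM with siNTRK2 and at 43.8, 40.5 and 47.0 CPM with siBDNF, with the siCtrl_Sen libraries between them (log2 difference -0.66 ± 0.078, adjusted p = 8.01e-07). ERN1 stood at 14.8, 13.3 and 12.5 CPM against 18.5, 19.1 and 18.2 CPM (-0.46 ± 0.090, adjusted p = 0.000729). SDF2L1 stood at 13.5, 12.8 and 13.6 CPM against 16.9, 15.8 and 16.7 CPM (-0.31 ± 0.076, adjusted p = 0.00564). In these 3 genes no siNTRK2 library reached the level of a siBDNF library. ERO1A stood at 46.3, 41.4 and 49.6 CPM against 56.0, 54.5 and 54.1 CPM (-0.26 ± 0.067, adjusted p = 0.008), and without siNTRK2_Sen replicate 2, its lowest library, the difference was -0.19 and no longer called (adjusted p = 0.0654).

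PDIA4 stood at 252, 251 and 244 CPM with siNTRK2 and at 195, 196 and 199 CPM with siBDNF (0.34 ± 0.042, adjusted p = 1.46e-06). ATF4 stood at 194, 188 and 184 CPM against 154, 161 and 144 CPM (0.30 ± 0.048, adjusted p = 6.67e-05). CREB3L1 stood at 267, 233 and 246 CPM against 202, 204 and 202 CPM (0.30 ± 0.053, adjusted p = 0.000233). In each of these genes the lowest siNTRK2 library was above the highest siBDNF library. PHGDH, at 22.5, 23.6 and 23.9 CPM against 19.018, 18.791 and 19.719 CPM, also differed without overlap (0.28 ± 0.059, adjusted p = 0.00122), and HSP90B1 differed by 0.21 ± 0.044 (adjusted p = 0.00179). The remaining 7 calls were small and lost when some single library was left out. They were those of PSAT1 (0.21, without siBDNF_Sen replicate 2, adjusted p = 0.0523), DNAJB11 (0.18, without siBDNF_Sen replicate 3, adjusted p = 0.129) and ASNS (0.19, without siNTRK2_Sen replicate 2 or 3 or any siBDNF_Sen library, adjusted p = 0.0688 to 0.214). They also included CHAC1 (0.17, without siNTRK2_Sen replicate 1 or 3 or siBDNF_Sen replicate 1 or 2, adjusted p = 0.0794 to 0.179) and HYOU1 (0.13, without siNTRK2_Sen replicate 1 or 3 or any siBDNF_Sen library, adjusted p = 0.0678 to 0.0954). The isomerases PDIA3 (0.13, without siNTRK2_Sen replicate 2 or any siBDNF_Sen library, adjusted p = 0.0694 to 0.165) and PDIA6 (0.12, without siNTRK2_Sen replicate 1 or 3 or any siBDNF_Sen library, adjusted p = 0.0563 to 0.125) completed them. With library totals DNAJB11, ASNS, CHAC1, HYOU1, PDIA3 and PDIA6 were not called, while the offset moved PDIA3 to 0.20, PDIA6 to 0.20 and ERO1A to -0.17, all called.

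**Figure D4:**
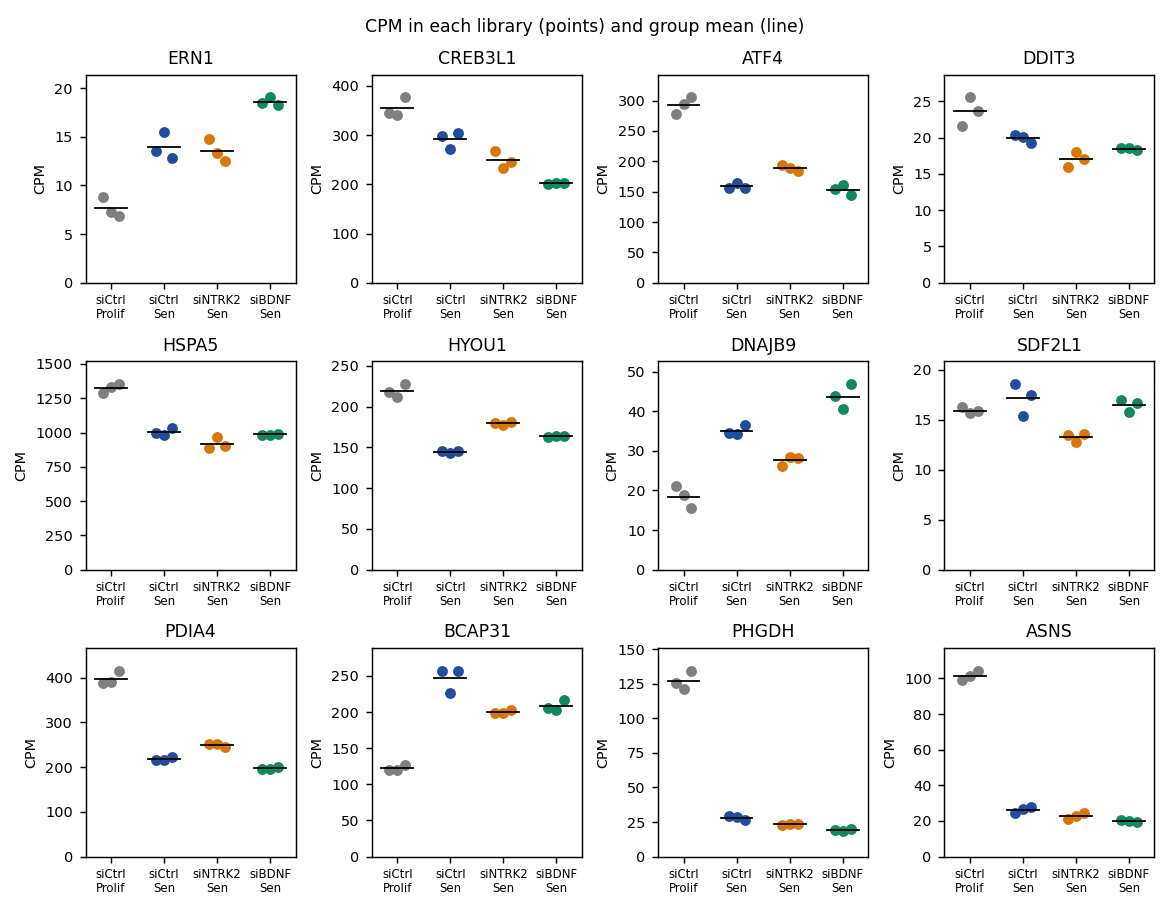
CPM of 12 of the genes in each library (points) and the mean of each group (line), with every axis starting at 0. PHGDH and ASNS stand at 98.9 CPM or more in the proliferating libraries and at 29.1 CPM or less in all senescent ones, and DNAJB9 lies at 26.1 to 28.5 CPM with siNTRK2 and at 40.5 to 47.0 CPM with siBDNF, on either side of siCtrl_Sen (34.3 to 36.5 CPM).

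Other genes of the pathway were read from lists of their known members, also chosen with earlier results of these data known. Of 20 further genes of amino acid supply, folate-dependent carbon transfer and tRNA charging that ATF4 is known to act on, 18 were lower in siCtrl_Sen than in siCtrl_Prolif and none was higher, where 28.3% of all tested genes were lower and 29.8% higher. The median log2 fold change of the list was -0.69. The largest falls were those of PCK2, a mitochondrial enzyme that makes phosphoenolpyruvate (-1.68 ± 0.083, adjusted p = 6.85e-15), the amino acid transporter SLC7A5 (-1.55 ± 0.052, adjusted p = 2.33e-18) and the transsulfuration enzyme CBS (-1.39 ± 0.056, adjusted p = 1.2e-16). With siNTRK2, 5 of the 20 were lower (10% of all tested genes), led by the alanyl-tRNA synthetase AARS1 (-0.43), and the cystine transporter SLC7A11 was higher (0.42 ± 0.062, adjusted p = 2.73e-05). With siBDNF, 9 were lower (10.2% of all tested genes), led by CBS (-0.50), and 2 were higher, SLC7A11 (0.36) and the amino acid transporter SLC38A2 (0.29). With library totals the split of this list in senescence was 1 higher and 18 lower, and with siNTRK2 it was 2 higher and 4 lower, or 2 higher and 3 lower with the offset for length and GC content. The shares of all genes above are from the fit with scaling factors and no offset.

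**Figure D5:**
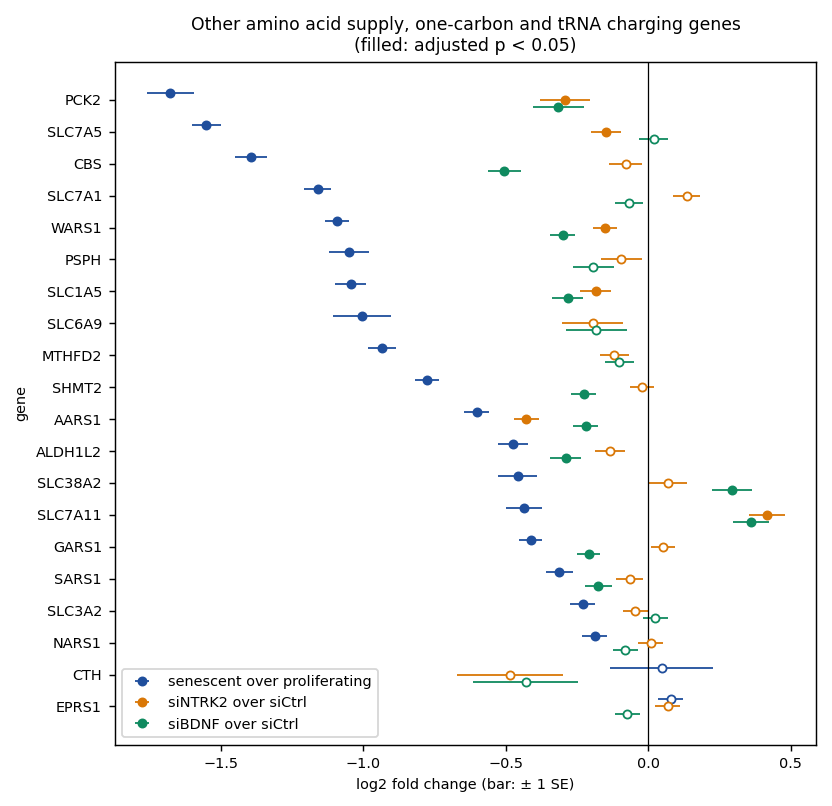
Log2 fold changes of 20 further genes of amino acid supply, folate-dependent carbon transfer and tRNA charging in 3 comparisons, with bars of 1 standard error, filled where the adjusted p was under 0.05. Blue is siCtrl_Sen over siCtrl_Prolif, orange siNTRK2 and green siBDNF over siCtrl_Sen. The blue points of 18 genes are filled and lie left of 0, from -1.68 to -0.19, while SLC7A11 has filled orange and green points to the right of 0.

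The other lists were mixed, and their counts stand beside shares of all tested genes of 29.8% higher and 28.3% lower in senescence, 11.1% and 10% with siNTRK2, and 10.3% and 10.2% with siBDNF. Those shares are from the fit with scaling factors and without the offset for length and GC content. With that offset the median log2 fold change of all tested genes was -0.20 in senescence, 0.03 with siNTRK2 and -0.03 with siBDNF. Splits given with the offset include that shift. Of 13 tested transcription factors and stress targets of the ATF4 pathway, 7 were higher in senescence, among them the factor ATF3 (0.82 ± 0.094, adjusted p = 4.56e-08), and 6 were lower, led by the mTOR inhibitor DDIT4 (-1.38 ± 0.069, adjusted p = 7.92e-15). ATF3 was lower with siNTRK2 (-0.41) and with siBDNF (-0.34), and the list held 6 lower and no higher genes with siNTRK2, and 4 lower and 2 higher with siBDNF. Of 20 further genes of ER-associated degradation and transport, 11 were higher and 3 were lower in senescence, but with the offset for length and GC content 6 were higher and 10 were lower. With siNTRK2, SSR1, a subunit of the complex at the translocation pore, fell from 218 to 235 CPM to 144 to 156 CPM (-0.59 ± 0.053, adjusted p = 1.38e-08), and the lectin OS9 rose from 240.5 to 276 CPM to 328 to 347 CPM (0.40 ± 0.050, adjusted p = 1.99e-06), in a list with 2 higher and 6 lower genes. With siBDNF that list also had 2 higher and 6 lower genes, led by the mannosidase EDEM3 (0.37) and the translocon subunit SEC61B (-0.27), and 3 higher and 2 lower with library totals.

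Of 20 further ER folding enzymes, 11 were higher and 5 lower in senescence, from the prolyl isomerase FKBP2 at 0.87 to the reductase DNAJC10 at -0.58, and 4 were higher and 9 lower with the offset for length and GC content. With siNTRK2, 5 of them were higher and 3 lower, and siBDNF gave 2 higher and 3 lower. Without the offset, 58.1% of all tested genes were called in senescence, 21.1% with siNTRK2 and 20.5% with siBDNF. With the offset, the median log2 fold change of all genes in senescence was -0.20. Of 16 cytosolic and mitochondrial heat shock genes, 9 were higher and 2 lower in senescence, the chaperone HSPA1A at 0.56 and the mitochondrial protease LONP1 at -0.39, and 6 were higher and 7 lower with that offset. HSPA1A has a near-identical copy, HSPA1B, so its counts are uncertain. Of these heat shock genes 4 were lower and none was higher with siNTRK2, whereas siBDNF gave 4 lower and 1 higher. Of 10 genes for the eIF2-alpha kinases, its phosphatase and its exchange factor, 3 were higher and 3 lower in senescence (0 and 9 with the offset for length and GC content), 0 were called with siNTRK2 and 1 in each direction with siBDNF. Of 7 tested genes for related membrane-bound sensors and their proteases, CREB3 was higher (0.67) and 4 were lower in senescence, with CREB3L4 (-0.73) and CREB3L2 (-0.46) leading. None of these 7 was called with siNTRK2, and 2 were lower with siBDNF. Other splits also moved with the scaling. With the offset, the ATF4 factors and stress targets had 3 higher and 8 lower genes in senescence, 2 and 5 with siNTRK2, and 5 and 4 with siBDNF, and with library totals 4 and 3 with siBDNF. With the same offset the degradation list had 1 higher and 6 lower genes with siNTRK2 and 1 and 11 with siBDNF, and the folding enzymes had 7 and 1 with siNTRK2. With library totals the folding enzymes had 5 higher and 2 lower genes with siBDNF, and the heat shock genes had 2 and 2. The heat shock genes had 2 higher and 3 lower with siNTRK2 under the offset, and the related sensors had 1 in each direction, as they had with siBDNF under library totals.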

How the data were processed

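RNA of 12 WI-38 samples was made into stranded poly(A) libraries and sequenced. Per the study's methods and the submitters' processing notes, the authors demultiplexed with bcl2fastq 2.20.0.422, trimmed adapters with Cutadapt, aligned to hg19 with STAR 2.4.0j and counted with featureCounts 1.6.4. The deposited values are raw counts per Ensembl gene, 1 file per library, without normalization. Whether counting used the strand is not given in the sources used here.

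Groups and replicate numbers came from the sample titles. The labels do not say whether replicates were separate cultures. The study's methods describe independent experiments in general without naming these libraries, so p-values measure only the spread between these samples, which may in part be technical. Counts were fitted in R 4.3.3 with edgeR 4.0.16: TMM scaling, filterByExpr (21518 genes kept), a quasi-likelihood fit of the 4 groups over all 12 libraries, and Benjamini-Hochberg adjustment over all tested genes. A gene was called at an adjusted p under 0.05. Errors of log2 fold changes are standard errors, from the F statistic. CPM is a count divided by the scaled library size in units of 1e6, and the floor of 3 counts covers counting error only. DESeq2 1.42.0, the tool of the study's methods, was an alternative. The script was tested on simulated data.

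The 34 members and all gene lists were chosen with earlier results of these data known. Values in every library are given for the sensors, transcription factors and HSPA5, and in each comparison for the 8 called members with the largest absolute log2 fold change. From each further list, up to 3 called genes in each direction could be named, by size of change. Other members are given by their levels or, where called, by fold change and error. Gene positions are from a GENCODE annotation on hg19 and promoters from RefSeq on GRCh38.p14, searched over every listed start of a gene. Alternatives were DESeq2's test, its size factors, library totals, 2 other filters on low counts, the replicate block, an offset that removes trends with GC content and length (values available for 96.4% of tested genes), only the groups compared, a fold threshold and leaving out each library.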

Additional observations from a re-analysis of the deposited data

Results flagged for a closer look

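Differences between the silencings were flagged for members called in opposite directions with siNTRK2 and siBDNF against the same siCtrl libraries. A called direct difference was also required, so the direct p-values of flagged members are no independent support. DNAJB9 fell with siNTRK2 (-0.35) and rose with siBDNF (0.32), and the direct difference, siNTRK2 minus siBDNF, was -0.66 on the log2 scale (edgeR, adjusted p = 8.01e-07), lower in 3 of 3 siNTRK2 libraries. PDIA4 rose with siNTRK2 (0.19) and fell with siBDNF (-0.15), with a direct difference of 0.34 (adjusted p = 1.46e-06), higher in 3 of 3 libraries. The fall of PDIA4 with siBDNF lost its call without siCtrl_Sen replicate 3 or siBDNF_Sen replicate 1 or 2 (adjusted p = 0.0583 to 0.0673). Both direct differences stayed called under every alternative fit, with the fold threshold left aside. Groups of 3 libraries were not tested for single libraries that stand apart.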

How the results depend on the processing

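Leaving out each library in turn moved the number of called members between 24 and 26 in senescence, 12 and 16 with siNTRK2, 11 and 16 with siBDNF, and 10 and 14 for siNTRK2 against siBDNF. With an absolute log2 fold change over 1 added, the 4 counts were 6, 0, 0 and 0. With the fold threshold left aside, 22 of 25, 11 of 16, 9 of 14 and 8 of 16 called members kept their call under every alternative fit. No called member changed direction. No pairing by replicate number was seen. Deviations from the group means correlated at 0.00184 on average between libraries of the same number (-0.0396 to 0.027 over 18 pairs) and -0.000936 between others. The study states that the groups of an in vitro experiment were kept together, without naming these libraries. The correlations do not settle whether replicate numbers mark shared experiments. With the replicate block the counts of called members were 25, 17, 14 and 16, and ERO1B in senescence was the only called member to lose its call.

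Values under each alternative were computed for the called members and for the sensors, transcription factors and HSPA5, and those that changed sign belonged to uncalled results of ATF6, ERN1, EIF2AK3, ATF4 and HSPA5. With the offset for length and GC content, ATF6 was -0.0994 in senescence and 0.0348 for siNTRK2 against siBDNF, and EIF2AK3 was -0.0619 with siNTRK2. With library totals, ATF6 (0.0191), ATF4 (0.0077) and HSPA5 (0.0335) changed sign with siBDNF. Leaving out each library moved ERN1 with siNTRK2 between -0.111 and 0.0555 and EIF2AK3 between -0.0229 and 0.0789. The cause of these changes was not tested. The lowest member, ERO1B, stood at 1.89 CPM or more, above the floor of 3 counts in every library.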
